A study of Drosophila melanogaster with 5 samples.

Results

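The translation factors described here are the genes whose symbol in the deposited table begins with eIF, eEF, EF2, Ef1 or eRF, with the cap-binding eIF4E and eIF4G genes left out. This rule found 5 of the 12847 entries of the table, which carry 12782 different gene identifiers. Of these, 3 are named as initiation factors (eIF5, eIF5B and eIF6), 1 as an elongation factor (eEF1delta) and 1 as a release factor (eRF1). For all 5 the current annotation gives the same symbol as the table. In that annotation 45 genes match the rule by symbol. Besides the 5, 10 more are in the table under CG symbols, and they are described after the 5 genes. The other 30 were not analysed here.

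Protein synthesis starts when initiation factors bring the initiator tRNA, the mRNA and the small ribosomal subunit together and scan for a start codon. Elongation factors then deliver aminoacyl-tRNAs and move the ribosome along the mRNA, and release factors free the finished chain at a stop codon. In the male germline of Drosophila many mRNAs are made in spermatocytes and translated only later, so that control of initiation has a known place in sperm development.

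RNA was sequenced from ribosomes of Drosophila melanogaster testes, with 3 libraries of ribosomes precipitated with antibodies to βNACtes (βNACtes IP) and 2 libraries of total ribosomes, the control. The antibodies recognise the germinal β-subunits of the nascent polypeptide associated complex (NAC), a chaperone at the ribosomal exit tunnel, and so select ribosomes that carry these subunits. Both groups came from the Batumi strain, from pooled testes of adult males with a labelled age of 1 to 2 (the labels name no unit), and from ribosome pellets of extracts made with cycloheximide. None of the libraries analysed was a precipitate with an unrelated antibody.

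The table gives 1 value per gene and group, the authors' mean over the libraries, which is treated as FPKM (fragments per kilobase, scaled to the library). With 1 mean per group there is no replicate error, no test and no p-value for any value given here, and the depth is unknown. A ratio is the difference in log2(FPKM + 0.1) between the βNACtes IP and total ribosomes, positive where the βNACtes IP is higher, a scale that understates the change of low genes. They are given relative to 0.73, the median ratio of the 9793 genes with a mean of the groups of at least 1 FPKM, and all translation genes described here passed this filter. Genes at 1 or more on this relative scale are called higher and those at −1 or less lower. Of all kept genes 26.4% were higher and 29.2% lower, the shares against which counts of translation factors are read.

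Of the 5 translation factors, 2 were higher, 0 were lower and 3 lay between the limits. The transcripts of eIF5 and eIF5B, which act at start codon recognition and at the joining of the ribosomal subunits, were the higher ones. The elongation factor subunit eEF1delta was the only one of the 5 below the median of all genes. The median relative log2 ratio of the 5 genes was 0.56, against 0 for all kept genes by construction.

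eIF5 (FBgn0030719) activates the GTPase of eIF2 once the start codon is found. Its mean was 86.3 FPKM in the βNACtes IP and 13.3 FPKM in total ribosomes, a ratio of 6.50. On the relative log2 scale this was 1.96, which placed eIF5 at rank 1018 of the 9793 kept genes from the top. By abundance it ranked 1698 of 12847 entries in the βNACtes IP, against 4259 in total ribosomes.

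eIF5B (FBgn0026259) is the GTPase that joins the large subunit to the initiation complex, and in Drosophila it is known as a partner of the germline helicase Vasa. Its mean was 96.7 FPKM in the βNACtes IP and 18.5 FPKM in total ribosomes, a ratio of 5.21 and a relative log2 ratio of 1.65 (rank 1419). The pair thus had similar values to each other in both groups. eIF5 stood at 0.893 times the level of eIF5B in the βNACtes IP, against 0.716 times in total ribosomes.

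eIF6 (FBgn0034915) binds the large subunit, keeps it from joining early and takes part in ribosome assembly. Its mean was 169 FPKM in the βNACtes IP and 92.6 FPKM in total ribosomes. The relative log2 ratio was 0.13, close to the middle of all genes (rank 4607). The initiation factors thus differed among themselves. eIF5 minus eIF6 was 1.83 and eIF5B minus eIF6 was 1.51 on the log2 scale. Such differences between genes do not depend on how the columns are scaled, but they were smaller once exonic length was taken into account. Relative to genes of similar exonic length eIF5 was at 1.68, eIF5B at 0.97 and eIF6 at 0.64. The 3 factors summed to 352 FPKM in the βNACtes IP and 124 FPKM in total ribosomes, and their median relative log2 ratio was 1.65.

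eEF1delta (FBgn0032198) belongs to the complex that exchanges GDP for GTP on eEF1alpha, the carrier of aminoacyl-tRNAs. It was the most abundant of the 5 genes in both groups, with a mean of 229 FPKM in the βNACtes IP and 235 FPKM in total ribosomes. The relative log2 ratio was −0.77. Before centring it was −0.04, and it was 0.80 with TPM scaling (each column divided by its sum). The medians of all kept genes were 0.73 and 1.57 on these scales. The gene was thus below the median of all genes on each scale. The sign of its ratio depended on the scaling, so no direction between the groups is given for it. eEF1delta stood at 2.65 times the level of eIF5 in the βNACtes IP, against 17.7 times in total ribosomes, a difference of 2.73 between the log2 ratios of eIF5 and eEF1delta. Relative to genes of similar exonic length eIF5 was at 1.68 and eEF1delta at −0.26.

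eRF1 (FBgn0036974) recognises the stop codons and triggers release of the chain. Its mean was 126 FPKM in the βNACtes IP and 51.4 FPKM in total ribosomes, a ratio of 2.45. The relative log2 ratio was 0.56 (rank 3571), within the limits. With the deposited values as they are it was 1.29. On that scale the median of all kept genes was 0.73, and 43.6% of them were at 1 or more. eRF1 minus eEF1delta was 1.33 on the log2 scale. Relative to genes of similar exonic length eRF1 was at 0.28 and eEF1delta at −0.26, which are closer together.

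The order of the 5 genes by abundance was the same in both groups: eEF1delta, eIF6, eRF1, eIF5B and eIF5. Their spread differed. The highest was 2.65 times the lowest in the βNACtes IP, against 17.7 times in total ribosomes, since the least abundant genes had the largest ratios. In rank among all genes, eEF1delta stood at 629 in the βNACtes IP, against 539 in total ribosomes. eIF6 stood at 890 in the βNACtes IP, against 1237 in total ribosomes, and eRF1 at 1217, against 1950 in total ribosomes.

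**Figure D1:**
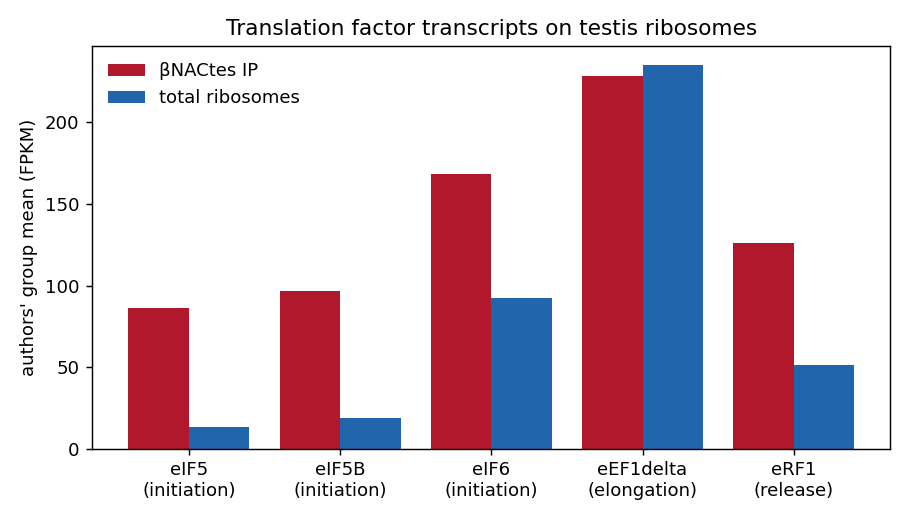
Authors' group means (FPKM, axis from 0) of the 5 translation factors in the βNACtes IP (red) and total ribosomes (blue), 1 value per group and hence no error bars. eIF5 and eIF5B were at 86.3 and 96.7 FPKM in the βNACtes IP, against 13.3 and 18.5 FPKM in total ribosomes, whereas eEF1delta was at 229 FPKM in the βNACtes IP and 235 FPKM in total ribosomes.

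A further 10 translation factors were found by identifier, since the table lists them under CG symbols and the current annotation under eIF symbols. They were added after the values were seen. Of these, 1 was higher (eIF2A) and 5 were lower (eIF3f1, eIF3g1, eIF3l, eIF3k and eIF3g2), against 26.4% and 29.2% of all kept genes. The median relative log2 ratio was −0.99. With TPM scaling 4 of the 10 were higher and 2 lower, against 62.3% and 8.64% of all kept genes.

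eIF2A (CG7414) is known in yeast and mammals as a factor that can bring the initiator tRNA independently of eIF2. It was the most abundant of the 15 factors in the βNACtes IP, at 484 FPKM, against 100.3 FPKM in total ribosomes, and its relative log2 ratio was 1.54. eIF1 (CG17737), which guards the choice of the start codon, had 235 FPKM in the βNACtes IP and 133 FPKM in total ribosomes (0.08). eIF4H2 (CG1340), related to a mammalian cofactor of the helicase eIF4A, had 190 FPKM in the βNACtes IP and 65.2 FPKM in total ribosomes (0.81). None of these 3 genes was below the median of all genes.

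The other 7 genes encode subunits of eIF3, the large scaffold that holds the small subunit ready for initiation. All 7 had relative log2 ratios below 0, from −2.97 to −0.13 with a median of −1.37. Of the 7, 5 were lower, against 29.2% of all kept genes. Set against genes of similar exonic length, the median was −0.87, and eIF3k and eIF3g2 were within the limits. With TPM scaling 4 of the 7 (eIF3k, eIF3g2, eIF3f2 and eIF3d2) were above 0. They were still below the median of all kept genes, which was 1.57 on that scale. eIF3f1 and eIF3g1 were lower under each scaling tried. The 7 genes summed to 662 FPKM in the βNACtes IP and 1251 FPKM in total ribosomes.

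For the f and g subunits the table holds both genes of a paralog pair, and the members of each pair differed. eIF3f2 (CG8335) had 58.2 FPKM in the βNACtes IP and 63.0 FPKM in total ribosomes. eIF3f1 (CG9769) had 48.7 FPKM in the βNACtes IP and 231 FPKM in total ribosomes. eIF3f2 thus stood at 1.20 times eIF3f1 in the βNACtes IP, against 0.273 times in total ribosomes, a log2 difference of 2.13 that no scaling of the columns alters.

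The g subunits showed the same order. eIF3g2 (CG10881) had 103 FPKM in the βNACtes IP and 136 FPKM in total ribosomes. eIF3g1 (CG8636) had 70.2 FPKM in the βNACtes IP and 312 FPKM in total ribosomes. eIF3g2 stood at 1.47 times eIF3g1 in the βNACtes IP, against 0.437 times in total ribosomes, a log2 difference of 1.75. In both pairs the gene numbered 2 was the more abundant one in the βNACtes IP and the less abundant one in total ribosomes. How reads that match both genes of a pair were divided is not given in the sources used here, so values within a pair are uncertain.

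The paralogs lie on different chromosomes. In the BDGP6 annotation eIF3g1 is on chromosome X, eIF3g2 and eIF3f1 on 3R and eIF3f2 on 2R. The remaining eIF3 genes were eIF3d2 (CG4810) at 128 FPKM in the βNACtes IP and 84.3 FPKM in total ribosomes, eIF3k (CG10306) at 180.5 FPKM in the βNACtes IP and 281 FPKM in total ribosomes, and eIF3l (CG5642) at 74.0 FPKM in the βNACtes IP and 143 FPKM in total ribosomes. Of these, eIF3d2 was the only eIF3 gene with the higher FPKM value in the βNACtes IP.

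**Figure D2:**
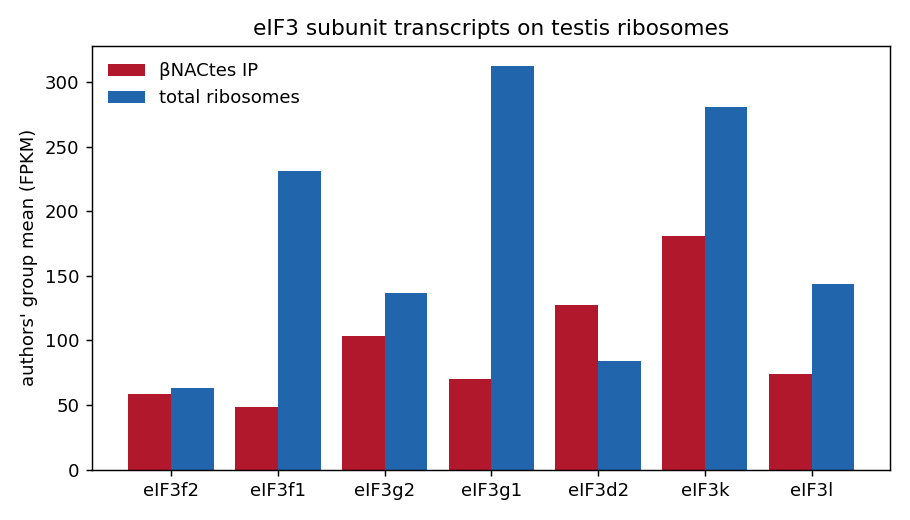
Authors' group means (FPKM, axis from 0) of 7 eIF3 subunit genes in the βNACtes IP (red) and total ribosomes (blue), with the paralog pairs side by side. eIF3f1 and eIF3g1 reach 231 and 312 FPKM in total ribosomes, against 48.7 and 70.2 FPKM in the βNACtes IP, whereas the bars of eIF3f2 and eIF3g2 differ less.

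Genes that act in the same pathway under other symbols were described as a list of 16 genes found in the table. The list also holds Su(var)3-9, a histone methyltransferase gene included because it shares exons with eIF2gamma. Of the 16 genes 6 were higher, 2 lower (Thor and Su(var)3-9) and 8 between, against 26.4% and 29.2% of all kept genes. Their median relative log2 ratio was 0.18. With TPM scaling 12 of the 16 were higher and 0 lower, against 62.3% and 8.64% of all kept genes. Without the 5 mitochondrial factors the median was 1.32 (11 genes with Su(var)3-9 among them, 6 higher and 2 lower). When genes were set against others of similar exonic length (10 classes of equal size) it was 0.09 for the same 11 genes, and of the 16 genes 1 was then higher and 2 were lower, against 25.2% and 27.3% of all genes with a known length.

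Among the partners of initiation, NAT1, a relative of eIF4G, had 71.9 FPKM in the βNACtes IP and 9.70 FPKM in total ribosomes (relative log2 ratio 2.15). The poly(A)-binding protein gene pAbp had 166 FPKM in the βNACtes IP and 36.1 FPKM in total ribosomes (1.47). The RNA helicase gene bel had 145 FPKM in the βNACtes IP and 34.0 FPKM in total ribosomes (1.36). Thor, the eIF4E-binding repressor of cap-dependent initiation, was lower, with 54.7 FPKM in the βNACtes IP and 132 FPKM in total ribosomes (−2.00). NAT1, pAbp and bel thus lay above and the repressor Thor below the median, and Thor was also below 0 with TPM scaling (−0.43). NAT1, pAbp and bel are long genes and Thor is short. Relative to genes of similar exonic length NAT1, pAbp and bel were within the limits, at 0.92, 0.79 and 0.68, and Thor was at −1.50.

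The kinases that phosphorylate eIF2 under stress were low in both groups. Gcn2 had 6.61 FPKM in the βNACtes IP and 1.08 FPKM in total ribosomes (1.78), and PEK had 8.27 FPKM in the βNACtes IP and 1.93 FPKM in total ribosomes (1.32). Their known downstream transcription factor gene crc was more abundant, with 111 FPKM in the βNACtes IP and 39.1 FPKM in total ribosomes (0.77). Relative to genes of similar exonic length Gcn2, PEK and crc were at 0.55, 0.09 and 0.09. The exons of crc (3423 bp) share 2515 bp with the gene model CG46314 on the same strand, which was not analysed here. Those of Gcn2 share 454 bp with PNPase on the other strand, at 8.43 FPKM in the βNACtes IP and 3.28 FPKM in total ribosomes. Su(var)3-9, a histone methyltransferase gene that shares exons with eIF2gamma, had 1.41 FPKM in the βNACtes IP and 2.75 FPKM in total ribosomes (−1.65).

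Next to eRF1 at the end of translation, pelo encodes a relative of eRF1 that frees stalled ribosomes and is known to be needed for meiosis in Drosophila males. It had 26.8 FPKM in the βNACtes IP and 4.82 FPKM in total ribosomes (1.72). Its GTPase partner HBS1 had 79.0 FPKM in the βNACtes IP and 60.2 FPKM in total ribosomes (−0.34). pelo stood at 0.340 times HBS1 in the βNACtes IP, against 0.0800 times in total ribosomes. The recycling factor gene pix had 69.8 FPKM in the βNACtes IP and 43.0 FPKM in total ribosomes (−0.03). The ratios of pelo (1.72) and eRF1 (0.56) were positive under each setting that could be computed for them (eRF1 has no value among genes without overlaps). Those of HBS1 and pix were 1.23 and 1.54 with TPM scaling, where the median of all kept genes was 1.57.

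**Figure D3:**
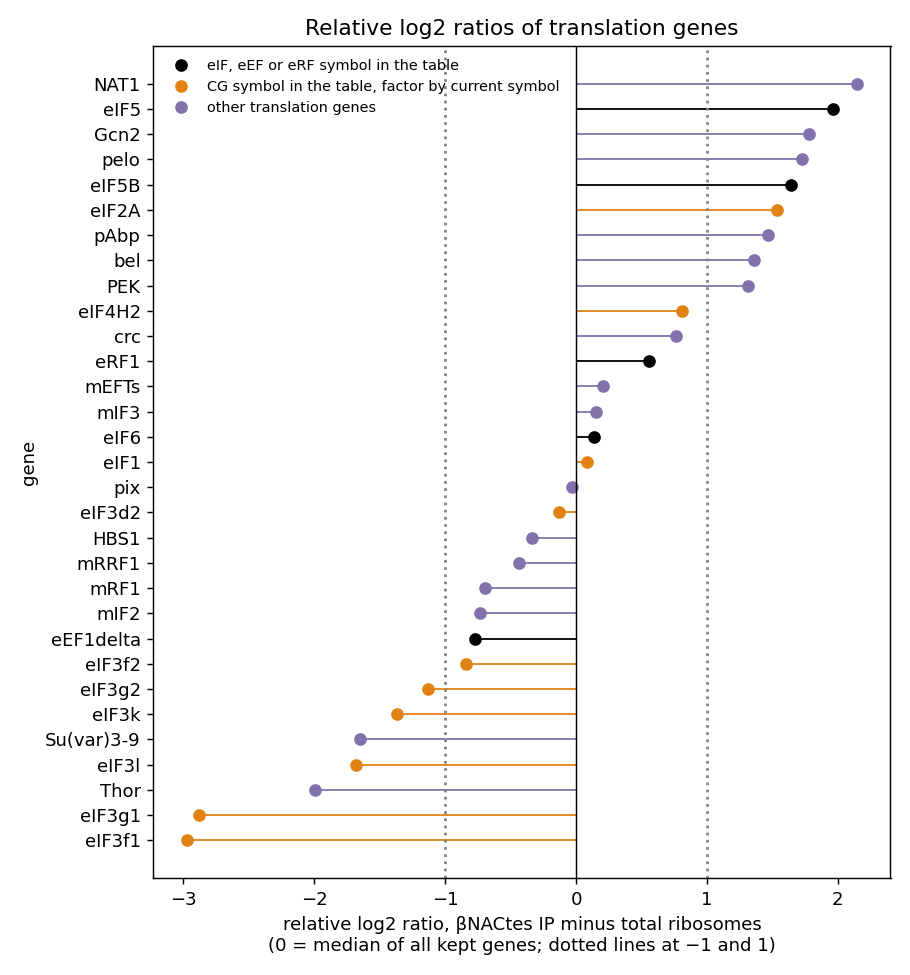
Relative log2 ratios (βNACtes IP minus total ribosomes, 0 is the median of all kept genes, dotted lines at −1 and 1) of the 5 translation factors (black), the 10 factors under CG symbols (orange) and the 16 other translation genes (violet). eIF5 and eIF5B lie near NAT1, Gcn2, pelo and eIF2A at the top and 5 eIF3 genes lie below −1. Of these, eIF3k and eIF3g2 are above 0 with TPM scaling, where the median of all kept genes is 1.57.

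For comparison, of the 93 genes of cytoplasmic ribosomal proteins 88 were lower and 0 higher, against 29.2% and 26.4% of all kept genes. Their median on the relative scale was −2.74. eEF1delta at −0.77 was thus above that median, whereas eIF3f1 and eIF3g1 were below it. Relative to genes of similar exonic length the median of the ribosomal protein genes was −2.12, with eEF1delta at −0.26, eIF3f1 at −2.47 and eIF3g1 at −2.37. The cap-binding gene eIF4G2, the only one of its family analysed, had 158 FPKM in the βNACtes IP and 17.3 FPKM in total ribosomes. Its relative log2 ratio of 2.46 was above that of each of the 5 factors. Relative to genes of similar exonic length eIF4G2 (9097 bp) was at 1.23, below eIF5 at 1.68. The exons of eIF4G2 share 779 bp with CG33111.

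Exonic length moved with these ratios. Over all kept genes the median relative log2 ratio was −0.85 in the class of the shortest genes and 1.23 in that of the longest. eIF5 (3203 exonic bp), eRF1 (3112 bp) and eIF5B (4410 bp) are long, and eIF6 (1056 bp) and eEF1delta (928 bp) are short. Relative to genes of the same length class, the log2 ratio was 1.68 for eIF5, 0.97 for eIF5B, 0.64 for eIF6, 0.28 for eRF1 and −0.26 for eEF1delta, so that 1 of the 5 genes, eIF5, was higher on this scale, against 25.2% of all genes. By length class eIF3f1, eIF3g1 and eIF3l were at −2.47, −2.37 and −1.51, whereas eIF3k (−0.87) and eIF3g2 (−0.62) were within the limits. The part of length in the members' differences was not tested further.

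**Figure D4:**
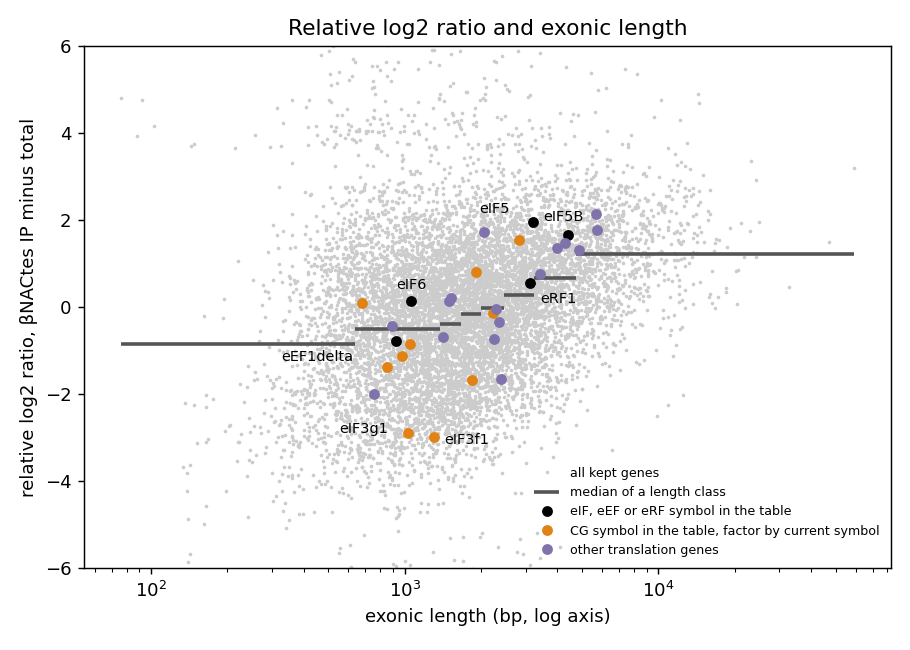
Relative log2 ratio (βNACtes IP minus total ribosomes) against exonic length (bp, log axis) for 9700 kept genes (grey, of which 157 lie outside the axis), with the median of each of 10 length classes as a bar. The 5 translation factors (black), the factors under CG symbols (orange) and the other translation genes (violet) follow the rise of the medians in part, with eIF5 above and eIF3f1 and eIF3g1 below the bar of their length.

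In the BDGP6 genome eIF5 extends from 15987008 to 15991974 on the minus strand of chromosome X, and eIF5B from 3428658 to 3460977 on the minus strand of 3L. eIF6 extends from 23849246 to 23850301 on the minus strand of 2R and has a single exon. eEF1delta extends from 10232507 to 10234450 on the plus strand of 2L, and eRF1 from 20348355 to 20353873 on the plus strand of 3L. The submitters' notes name the older build dm3 for the reads. The exons of eIF5 share 2588 bp with the gene model CG46312 on the same strand, and those of eRF1 share 189 bp with CG5618. Neither of these was analysed here. The exons of eIF5B, eIF6 and eEF1delta overlap no other gene. Those of eIF2A share 83 bp with CG32448 on the other strand, which had 476 FPKM in the βNACtes IP and 75.6 FPKM in total ribosomes.

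The material was checked with marker lists. Germline and spermatocyte markers were above 0 in both groups for 17 of 17 genes in the table and summed to 12080 FPKM (1.50% of the column) in the βNACtes IP and 5910 FPKM (0.412%) in total ribosomes. A few abundant genes carry these sums, with up to 3612 FPKM in the βNACtes IP and 2116 FPKM in total ribosomes. The median level of the list was 75.6 FPKM in the βNACtes IP and 74.2 FPKM in total ribosomes. These are medians of each column, not of the ratios. By gene, 7 were higher, 2 lower and 8 between, against 26.4% and 29.2% of all kept genes. All 9 muscle markers were above 0, and they summed to 443 FPKM (0.0552%) in the βNACtes IP and 221 FPKM (0.0154%) in total ribosomes. Of 6 hub and cyst cell markers, tj was listed at 0 in total ribosomes, and the list summed to 20.1 FPKM (0.00250%) in the βNACtes IP and 8.83 FPKM (0.000615%) in total ribosomes. The 16 accessory gland protein genes, which are made by a somatic gland outside the testis, summed to 34056 FPKM (4.24% of the column) in the βNACtes IP and to 143532 FPKM (10.0%) in total ribosomes. The median relative log2 ratio was 0.52 for the germline list and 0.47 for muscle. It was also 0.47 for the 4 hub and cyst markers that passed the filter. For the accessory gland list it was −2.58, and −1.81 relative to genes of similar exonic length. All 16 accessory gland genes were lower, against 29.2% of all kept genes. The shares of the germline, muscle, and hub and cyst lists all rose in the βNACtes IP, so a rise was not particular to germline genes. Relative to genes of similar exonic length the medians were 0.60 for germline, 0.59 for muscle and −0.13 for hub and cyst markers. The hub and cyst markers that passed the filter were low, at 1.72 to 8.53 FPKM in the βNACtes IP. With TPM scaling the median of all kept genes was itself at 1.57. The shares of all 4 lists moved with the groups, and their part in the ratios of the translation factors was not tested. In such bulk material fewer cells of a type and less RNA per cell cannot be told apart.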

How the data were processed

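The authors sequenced RNA of testis ribosomes in 3 βNACtes IP and 2 total ribosome libraries. The submitters' processing notes name TopHat2 2.0.14, Bowtie, Bowtie2, Cufflinks 2.2.1 and dm3. The authors deposited 1 mean per gene and group, treated here as FPKM, because value times exonic length gives 1098119 summed over the βNACtes IP column, against 1098789 for total ribosomes, but FPKM alone sums to 802728 and 1435535. The deposited table also holds the authors' log2 ratio, which was not used. The annotation, the strand and the treatment of shared reads are not given in the sources used here.

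Genes with a mean of at least 1 FPKM were kept, the pseudocount was 0.1, and ratios were centred on the median. Exonic lengths, coordinates and overlaps come from Ensembl release 115 (BDGP6), which held 12711 of the 12847 entries by identifier. The rule for named genes was to give values for every member past the limits, for all elongation and release factors, for paralogs and for the most abundant members. The rule found so few members that all are given. The planned look at promoter motifs and protein identity was not done, as no sequences were used here. The members and lists were chosen with earlier results of these data known. Samples were grouped by their labels. The alternatives were other scalings, pseudocounts and filters, genes without overlaps, and centring by length. Python 3.11.15, numpy 2.4.6, pandas 2.3.3 and matplotlib 3.10.9 were used, and the ratio script was tested on simulated data.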

Additional observations from a re-analysis of the deposited data

How the results depend on the processing

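eIF5, eIF2A, pelo and eIF4G2 were at 1 or more, and eIF3f1 and eIF3g1 at −1 or less, under each setting that could be computed for them. The lowest values for eIF5 and eIF5B were 1.68 and 0.97 and the highest 3.53 and 3.21. The number of the 5 factors called higher was 4 with TPM scaling, 1 relative to genes of the same length class, and 1 among the 3 of them whose exons overlap no other gene, where eIF5 and eRF1 drop out. The median of the initiation factors was 0.97 relative to genes of the same length and 0.91 without overlapping genes. The elongation factor eEF1delta was at −0.041 with the deposited values, 0.80 with TPM scaling and −0.14 with TPM after leaving out the 100 most abundant genes, a setting chosen after seeing the data. In the same order the release factor eRF1 was at 1.29, 2.13 and 1.19, and the median of all kept genes at 0.73, 1.57 and 0.63. With TPM scaling eIF3k (0.20), eIF3g2 (0.44), eIF3d2 (1.44), mRRF1 (1.14), HBS1 (1.23), pix (1.54), eIF3f2 (0.73), mIF2 (0.84), mRF1 (0.87) and eEF1delta changed sign, which follows from the shift of the median of all genes to 1.57. Of all kept genes 62.3% were then higher and 8.64% lower, against 26.4% and 29.2% with centring. No paired analysis was possible because the table holds 1 mean per group, and leaving out single replicates was not run for the same reason. Depth, replicate error and GC content are unknown here.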

Other observations

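Of the mitochondrial translation factors, mEFTs (CG6412), the nucleotide exchange factor of the mitochondrial elongation factor Tu, was by far the most abundant, with 336 FPKM in the βNACtes IP and 176 FPKM in total ribosomes. Its FPKM was above that of eEF1delta in the βNACtes IP (229 FPKM) and below it in total ribosomes (235 FPKM). Relative to genes of similar exonic length mEFTs was at 0.60 and eEF1delta at −0.26. The other 4 were between 3.91 and 20.3 FPKM in the βNACtes IP. The recycling factor mRRF1 (CG4447) had 20.3 FPKM in the βNACtes IP and 16.5 FPKM in total ribosomes, and the initiation factor mIF3 (CG13163) had 12.3 FPKM in the βNACtes IP and 6.62 FPKM in total ribosomes. The release factor mRF1 (CG5705) had 4.19 FPKM in the βNACtes IP and 4.09 FPKM in total ribosomes, and mIF2 (CG12413) had 3.91 FPKM in each group. None of the 5 passed the limits, with relative log2 ratios from −0.73 to 0.20.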
